A study of Homo sapiens with 6 samples.

Results

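The diagnostic and prognostic marker genes of chronic lymphocytic leukaemia (CLL) were followed in HG3, a lymphoblastoid B cell line. Control pools were set beside pools resistant to the purine analogue fludarabine. The sample titles call the resistant pools treated. The genes were 10 listed markers, ZAP70, CD38, CD5, FCER2, ROR1, LPL, ITGA4, LEF1, CD200 and FMOD, and all 10 were found by symbol among the 23619 genes in each file. The list goes by the use of the genes in CLL. The series held 6 libraries, 1 each from control pools 17, 18 and 28 and from the fludarabine-resistant pools of the same numbers. All 6 came from the one line HG3, a culture of CLL B cells immortalised with Epstein-Barr virus, and the title places the pools in a transposon mutagenesis study. The design text asks whether resistant cells differed across the transcriptome from their parents. The sources used here do not give the dose, the time under drug, or whether the pools were grown apart before selection. A p-value therefore sets the group difference against the spread between these libraries, and may not hold for new pools.

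CLL cells are mature B cells that carry the T cell antigen CD5 and the IgE receptor CD23, the product of FCER2, and this pair with CD200 separates CLL from other B cell cancers at diagnosis. ZAP70, CD38 and ITGA4 (CD49d) are read as prognostic markers, since their proteins mark leukaemias with stronger antigen receptor signalling and tissue homing. ROR1, LEF1 and FMOD are silent in normal mature B cells and active in CLL, and LPL is high in CLL with unmutated antigen receptor genes. Epstein-Barr virus itself induces CD23, through a viral protein that sits on the DNA-binding factor CSL.

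Levels are in FPKM, which divides fragments by the length of the transcript and the size of the library, so levels of genes can be set side by side. Between 10936 and 11331 genes a library reached an FPKM of 1, and relative depth ran from 1 in control 17 to 1.31 in resistant 28. Of 10 B cell genes, 9 had at least 1 FPKM in all 6 libraries, MS4A1, CD79A, CD79B and PAX5 among them, and VPREB3 was below 1 in all 6. Of 12 T cell genes 11 stayed below 1 FPKM in all 6, which bears on ZAP70, CD5 and LEF1, genes that T cells use. The defining genes CD3D, CD3E and CD3G did not exceed 0.238 FPKM in any library. The summed T cell list lay between 2.36 and 3.05 FPKM in controls and between 0.977 and 12.5 in resistant libraries. Its 1 gene above the limit was TRAT1, which reached 11.7 in resistant 18. Of 8 natural killer cell genes 7 stayed below 1 FPKM in all 6. The exception NKG7 had 0.525, 1.22 and 0.42 FPKM in controls, against 1.30, 0 and 0.16 in resistant libraries. Its part in the ZAP70 values was not tested. Summed over 10 genes of Epstein-Barr virus transformed cells, controls lay between 1150 and 1260 FPKM and resistant libraries between 1360 and 1560, without overlap. By gene, 6 had a higher mean log2 level in resistant libraries and 4 a lower one. Of the 10, 2 had all resistant libraries above all controls, against 10.1% of all tested genes, and 0 had them below, against 11.1%. The part of these genes in the results was not tested. Resistant 18 stood apart, with an array weight of 0.162 against 1.03 to 1.93 in the other libraries.

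Promoters of the members were read from RefSeq on GRCh38.p14, where 8 of the 10 had an entry, with 11 start sites in all. The 250 bases before each start were searched on both strands. The motifs were GTGGGAA, bound by CSL, and CTTTGAT, bound by the TCF and LEF1 factors. The 3 promoters with a match are shown because they belong to the most abundant marker, the marker with the largest difference, and CD38. Capitals mark the match, on the strand of the gene.
ZAP70, chr2:97713326-97713575, plus strand: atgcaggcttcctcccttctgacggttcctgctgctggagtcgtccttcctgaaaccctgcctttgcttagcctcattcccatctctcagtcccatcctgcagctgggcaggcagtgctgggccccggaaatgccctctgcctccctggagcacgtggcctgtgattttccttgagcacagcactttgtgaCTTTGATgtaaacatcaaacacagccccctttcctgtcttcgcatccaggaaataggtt
FCER2, chr19:7702132-7702381, minus strand: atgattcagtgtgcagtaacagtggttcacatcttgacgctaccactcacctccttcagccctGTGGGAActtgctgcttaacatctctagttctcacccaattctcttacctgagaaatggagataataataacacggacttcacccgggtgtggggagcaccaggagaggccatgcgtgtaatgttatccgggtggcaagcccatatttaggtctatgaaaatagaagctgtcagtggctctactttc
CD38, chr4:15778078-15778327, plus strand: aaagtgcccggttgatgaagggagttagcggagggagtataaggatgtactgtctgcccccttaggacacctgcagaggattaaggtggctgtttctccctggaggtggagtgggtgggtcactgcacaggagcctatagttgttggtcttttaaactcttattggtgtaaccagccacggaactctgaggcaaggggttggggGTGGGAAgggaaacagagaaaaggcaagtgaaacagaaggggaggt
CTTTGAT lay 59 bases before the upstream start of ZAP70. It was present before 1 of the 11 starts of the members and before 2.26% of all 35116 RefSeq starts. GTGGGAA lay 187 bases before the upstream start of FCER2 and 46 bases before that of CD38. It was present before 2 of the 11 starts of the members and before 5.43% of all starts. The other starts of ZAP70 and FCER2 had no match to either motif. The stretches shown for ZAP70 and FCER2 each held 5 CG dinucleotides and that of CD38 held 3, against a median of 11 over all starts. The markers were not alike in this, with 24 in ROR1, 25 in ITGA4, and 7 and 11 at the other starts of ZAP70. A match is a description of the letters, and no binding was measured in these cells.

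FCER2, the most abundant marker, had 553, 678 and 422 FPKM in controls 17, 18 and 28 (551 ± 128, SD, n = 3), above 98.5% of all genes. CD200 (31.3 ± 3.74 FPKM), ZAP70 (27.2 ± 8.73), ITGA4 (16.2 ± 3.71) and CD5 (15.5 ± 3.50) formed a middle tier, above 80.3% to 88.5% of genes. The control ranges of neighbours in this tier overlapped. Within libraries, ZAP70 was above ITGA4 in all 3 controls (1.68-fold by the means), while CD200 was above ZAP70, and ITGA4 above CD5, in 2 of 3. CD38 (2.24 ± 0.633) and ROR1 (1.66 ± 0.847) were low and their ranges overlapped, as did those of ROR1 and LPL, although each of these pairs kept its order in all 3 controls.

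LPL (0.709 ± 0.297 FPKM), LEF1 (0.251 ± 0.223) and FMOD (0.203 ± 0.165) were below 1 FPKM on average in controls. The ranges separated at 3 steps of the order, between FCER2 and CD200 (17.6-fold), between CD5 and CD38 (6.92-fold) and between LPL and LEF1 (2.83-fold). HG3 controls thus held RNA of the diagnostic surface markers CD5, FCER2 and CD200 and of ZAP70 at moderate to high levels, and little of CD38 and ROR1.

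**Figure D1:**
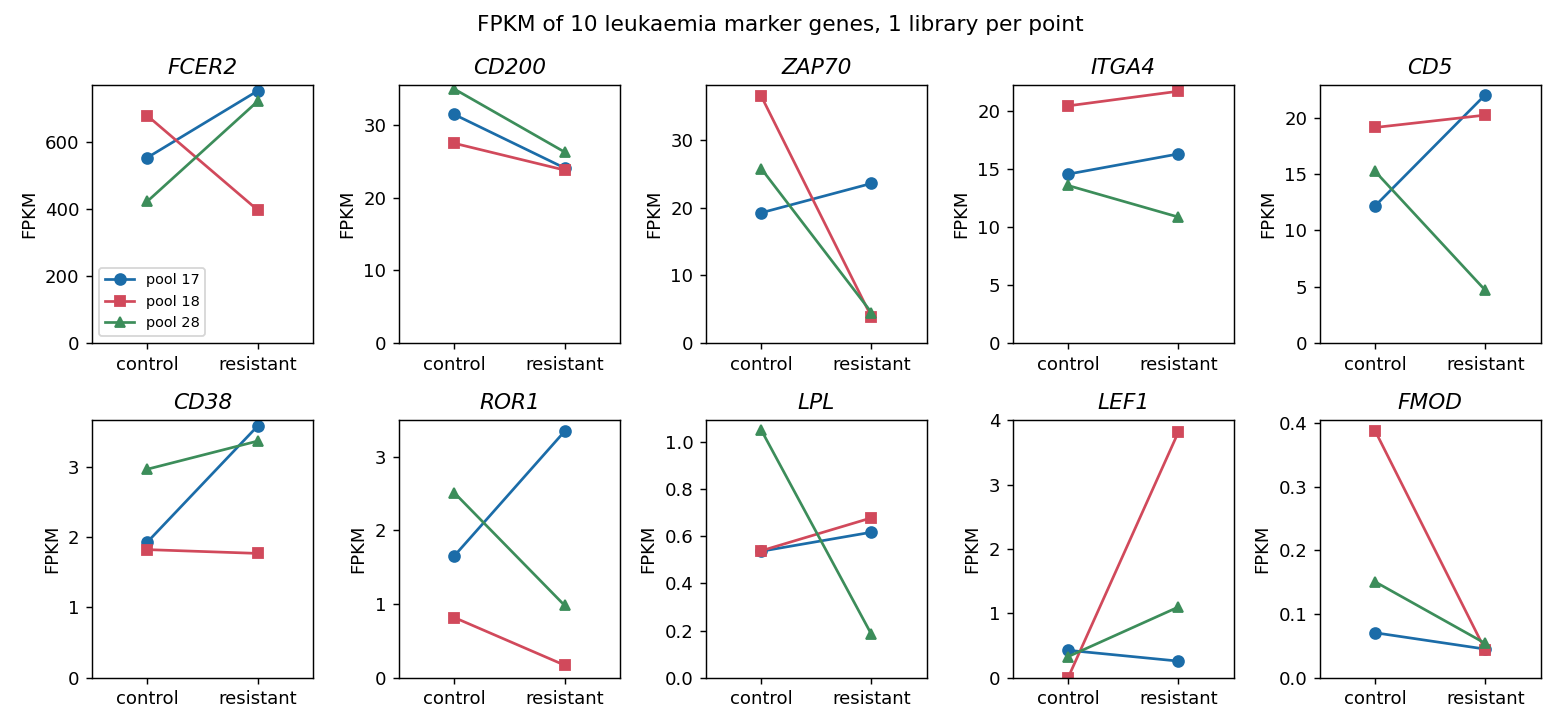
FPKM (vertical axes, linear from 0) of each marker in the control and the resistant library of pools 17, 18 and 28, with 1 library per point and lines joining libraries of the same pool number. ZAP70 is at 3.83 and 4.49 FPKM in resistant 18 and 28 and at 23.6 in resistant 17, and CD200 is the one marker above 1 FPKM with all resistant libraries below all controls.

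Testing was limited to genes that reached 1 FPKM in 3 or more of the 6 libraries. This filter left 7 of the 10 markers among 11307 genes, and ROR1 passed it with 3 libraries. None of the 7 passed the adjusted threshold of 0.05 in limma, where 4 of the 11307 genes did, a background of 0.0354% (0.0177% higher and 0.0177% lower). One marker, ZAP70, had an unadjusted p under 0.05, as did 13.1% of all tested genes, 7.14% lower and 5.99% higher. Differences below are on the log2(FPKM + 1) scale, resistant minus control, unless a level or fold is named; the added 1 shrinks differences of low genes. Where a pool is named, the value is 1 library against 1 library and has no test.

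ZAP70, the tyrosine kinase that relays antigen receptor signals in T cells and in aggressive CLL, had the largest difference of the 7. Controls 17, 18 and 28 held 19.3, 36.5 and 25.8 FPKM, and resistant 17, 18 and 28 held 23.6, 3.83 and 4.49. Resistant 18 and 28 lay far below every control, while resistant 17 lay inside the range of controls, so the groups overlapped. In these bulk pools, fewer ZAP70-positive cells and less RNA per cell cannot be told apart. The level was 9.53-fold lower in pool 18 and 5.74-fold lower in pool 28, and 1.23-fold higher in pool 17. On the log2 scale the differences were 0.28, -2.96 and -2.29 in pools 17, 18 and 28. Only 0.504% of tested genes were lower than ZAP70 in pool 18 and 0.327% in pool 28. Over the groups the difference was -1.65 (SE 0.61, 95% interval -3.09 to -0.22, limma adjusted p = 0.322). With both libraries of pool 17 left out it was -2.62, and with those of pool 18 left out -1.003, and it did not pass in either case.

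The kinases and adaptors around ZAP70 were described from a list of 24 genes, 23 of them tested, and 0 passed the adjusted threshold. SYK, the relative of ZAP70 that B cells use, had 15.1, 16.4 and 14.3 FPKM in controls, against 16.7, 15.25 and 11.1 in resistant libraries, a difference of -0.10 (adjusted p = 0.855). SYK in resistant 18, where ZAP70 was lowest, lay within the range of controls. In resistant 28, where ZAP70 was nearly as low, SYK lay below all controls. LCK, the kinase that phosphorylates ZAP70 in T cells, had 40.0, 62.2 and 39.0 FPKM in controls, against 26.6, 24.0 and 20.4 in resistant libraries (-0.94, adjusted p = 0.197). Every resistant library was below every control for LCK, pool 17 included, unlike ZAP70; whether the 2 genes differ in this was not tested. PAG1, a membrane adaptor that restrains kinases of this family, differed by -0.88 (adjusted p = 0.184), CBL, a ubiquitin ligase that binds ZAP70, by -0.93 (0.197) and PLCG1, a phospholipase, by -0.62 (0.217). In the list, 6 of 23 genes had all resistant libraries below all controls, against 11.1% of all tested genes, and 1 had them above, against 10.1%. The median difference was -0.25, beside 0.01 over all tested genes.

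CD38, an ectoenzyme that consumes NAD and marks activated B cells, had 1.93, 1.82 and 2.97 FPKM in controls 17, 18 and 28, against 3.59, 1.77 and 3.37 in resistant libraries. Resistant 17 and 28 were above all controls and resistant 18 below all of them. The values were whole multiples of a common step after scaling by relative depth, as 38, 37 and 73 steps in controls and 74, 38 and 87 in resistant libraries. A step is taken as 1 fragment or a fixed number of fragments. The difference was 0.25 (SE 0.25, 95% interval -0.34 to 0.84, adjusted p = 0.708). It was 0.055 without both libraries of pool 17 and 0.48 without resistant 18. PECAM1 (CD31), the receptor that CD38 binds on other cells, lay between 2.84 and 5.55 FPKM in controls and between 1.36 and 5.46 in resistant libraries.

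CD5, a scavenger receptor family protein that dampens antigen receptor signals, had 12.2, 19.1 and 15.2 FPKM in controls. In resistant 17, 18 and 28 it had 22.0, 20.2 and 4.67. Resistant 17 and 18 were above all controls and resistant 28 below all of them, with a level 3.26-fold lower than in control 28. In steps, CD5 had 548, 889 and 858 in controls and 1042, 995 and 276 in resistant libraries, so these are not sparse values. The difference was 0.81, 0.08 and -1.52 in pools 17, 18 and 28, and 1.25% of tested genes were lower in pool 28. Over the groups it was -0.21 (95% interval -1.44 to 1.02, adjusted p = 0.899), and it was 0.44 without resistant 28.

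**Figure D2:**
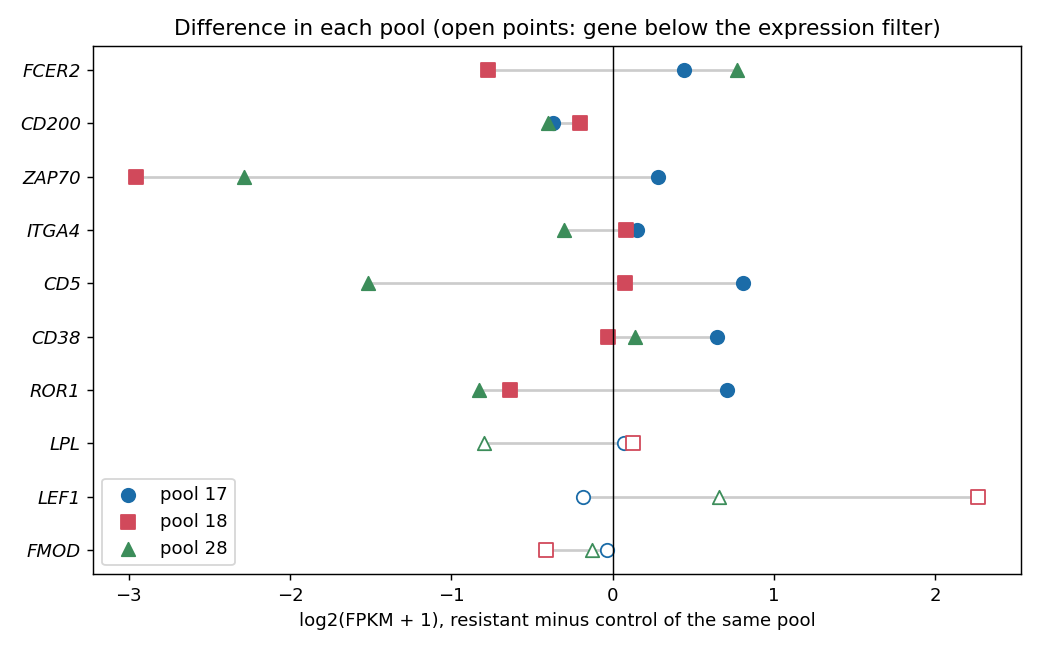
Difference of log2(FPKM + 1) between the resistant and the control library of each pool (horizontal axis) for the 10 markers (vertical axis), with filled points for tested genes and open points for genes below the filter. ZAP70 spans 0.28 to -2.96 and LEF1 -0.18 to 2.27, while the 3 pools of CD200 lie between -0.40 and -0.20.

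FCER2 encodes CD23, the low-affinity IgE receptor, which is shed from activated B cells. It stayed the most abundant marker in all 6 libraries, with 752, 396 and 721 FPKM in resistant 17, 18 and 28 against 553, 678 and 422 in the controls. Resistant 17 and 28 were above all controls and resistant 18 below all of them. The difference was 0.44, -0.77 and 0.77 in pools 17, 18 and 28, and 0.15 over the groups (SE 0.32, 95% interval -0.61 to 0.90, adjusted p = 0.880).

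CD200, an immunoglobulin family protein that inhibits myeloid cells through its receptor, had 31.5, 27.5 and 35.0 FPKM in controls, against 24.1, 23.8 and 26.3 in resistant libraries, 1.27-fold lower on average. All resistant libraries were below all controls, the single case among the 7 tested markers, while 21.3% of all tested genes had groups that did not overlap in either direction. Pools 17, 18 and 28 gave CD200 differences of -0.37, -0.20 and -0.40, and the groups -0.32 (SE 0.16, 95% interval -0.70 to 0.05, adjusted p = 0.431). Its receptor gene CD200R1 was at or below 0.318 FPKM in all 6 libraries.

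Around these receptors, 12 of 14 listed partners were tested and 0 passed. CR2 (CD21), which binds CD23, had 84.6 ± 18.0 FPKM in controls, against 65.5 ± 13.5 in resistant libraries (-0.37, adjusted p = 0.546). ADAM10, the protease that sheds CD23, differed by -0.29 (0.644), NOTCH1 by -0.64 (0.430), STAT6, which relays IL-4 to the FCER2 promoter, by 0.47 (0.412), STAT3 by -0.36 (0.444) and the costimulatory receptor gene CD40 by 0.59 (0.458). CD40 had 432, 228 and 363 FPKM in resistant 17, 18 and 28 against 262, 246 and 163 in controls. CD40 thus was above its own control in pools 17 and 28, as FCER2 was. In pool 18 CD40 differed by only -0.107 and resistant 18 lay within the range of controls. FCER2 differed there by -0.77 and lay below all controls.

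ITGA4, the alpha chain of the VLA-4 integrin that holds CLL cells to stroma, had 14.5, 20.4 and 13.6 FPKM in controls, against 16.3, 21.7 and 10.8 in resistant libraries. Its level was highest in pool 18 and lowest in pool 28 of both groups. The difference was -0.02 (SE 0.27, 95% interval -0.67 to 0.63, adjusted p = 0.984). Of the beta chains that pair with it, ITGB1 had 8.81 ± 0.0587 FPKM (SD, n = 3) in controls and 9.82, 13.3 and 10.7 in resistant libraries. ITGB7 had 184, 177 and 149 FPKM in controls, against 241, 242 and 263 in resistant libraries (0.55, adjusted p = 0.273). Both beta chains had all resistant libraries above all controls. CD44, a hyaluronan receptor that acts with VLA-4, had 83.0, 128 and 175 FPKM in controls, against 60.4, 44.3 and 50.9 in resistant libraries (-1.24, adjusted p = 0.192). The leukocyte integrin chain gene ITGAL differed by -0.38 (0.444) and the adhesion adaptor gene PXN by -0.48 (0.384). Of 18 tested genes of this list, 0 passed, 3 had all resistant libraries below all controls, against 11.1% of all tested genes, and 2 had them above, against 10.1%.

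ROR1, a receptor for WNT5A that is silent in normal B cells, had 1.65, 0.816 and 2.51 FPKM in controls, against 3.34, 0.170 and 0.982 in resistant libraries. Resistant 17 was above all controls, resistant 18 below all of them, and resistant 28 within their range. The level was 2.02-fold higher in pool 17, 4.80-fold lower in pool 18 and 2.56-fold lower in pool 28. The difference over the groups was -0.25 (SE 0.48, 95% interval -1.38 to 0.88, adjusted p = 0.860), and it was 0.19 without resistant 18.

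LEF1, a transcription factor of the WNT pathway that CLL cells switch on, did not reach the filter. It had 0.425 FPKM in control 17, was listed at 0 in control 18 and had 0.327 in control 28. In resistant 17, 18 and 28 it had 0.257, 3.82 and 1.10. Resistant 18 and 28 were thus above all controls and resistant 17 within them, and no fold is given for pool 18. TCF7, the close relative of LEF1, had 22.3, 21.6 and 34.3 FPKM in controls, against 7.87, 8.88 and 12.9 in resistant libraries. All resistant libraries were below all controls for TCF7, in pool 17 as in the others (-1.395, -1.19 and -1.34 in pools 17, 18 and 28). The TCF7 difference over the groups was -1.31 (SE 0.25, adjusted p = 0.173), so it did not pass either, although it passed with array weights (0.0413).

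The WNT list held 30 genes, of which 18 were tested and 0 passed. APC, a scaffold of the complex that degrades beta-catenin, differed by -0.52 (adjusted p = 0.348), its kinase gene GSK3B by -0.53 (0.371), and DVL3, which relays the signal of the receptors, by -0.42 (0.371). In this list 4 of 18 genes had all resistant libraries below all controls, against 11.1% of all tested genes, and 0 had them above, against 10.1%. The median was -0.10. WNT5A, the ligand of ROR1, ranged from 0.451 to 0.756 FPKM over the libraries, and WNT3 was listed at 0 in all 6.

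LPL, which hydrolyses triglycerides of lipoproteins, had 0.536, 0.538 and 1.05 FPKM in controls, against 0.617, 0.678 and 0.183 in resistant libraries, and was not tested. It corresponded to 29, 30 and 71 steps in controls and 35, 40 and 13 in resistant libraries. Resistant 28 was the lowest library and control 28 the highest, and the others lay close together. Genes that use the fatty acids were more abundant. PNPLA2, the lipase of stored fat, had 8.19, 14.3 and 17.3 FPKM in controls, against 5.03, 2.62 and 4.74 in resistant libraries (-1.46, adjusted p = 0.179). CPT1A, which admits fatty acids to mitochondria, had 13.6, 16.0 and 26.8 against 8.14, 8.02 and 8.13 FPKM (-1.07, 0.192). The lipoprotein receptor gene VLDLR differed by -0.68 (0.284), and the fatty acid carrier gene FABP5 by 1.12 (0.228), with 22.7 ± 3.93 FPKM in controls, against 53.1 ± 24.3 in resistant libraries. The groups did not overlap for these 4 genes and for ACADM, a dehydrogenase gene of fatty acid oxidation (0.70, adjusted p = 0.336), named for its lack of overlap. These 5 of 16 tested genes, 2 higher and 3 lower, stand beside 21.3% of all tested genes. Of the 16 tested genes in the list 0 passed, and the median was 0.00.

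FMOD, a small proteoglycan of connective tissue that CLL cells express, was near the limit of detection. It had 0.0706, 0.388 and 0.151 FPKM in controls, against 0.0449, 0.0432 and 0.0539 in resistant libraries. In steps these were 3, 17 and 8 in controls and 2, 2 and 3 in resistant libraries, 28 against 7 in sum, with 17 of the 28 in control 18. The groups did not overlap, at values too low to test. Of 7 fibroblast and stroma genes, 6 stayed below 1 FPKM in all 6 libraries, and 2 of these, DCN and LUM, were listed at 0. The exception THY1 had 2.99, 0.753 and 1.48 FPKM in controls, against 1.42, 0.438 and 0.797 in resistant libraries. BGN, a relative of FMOD, had 1.20, 3.18 and 3.07 FPKM in controls, against 1.62, 3.83 and 2.01 in resistant libraries.

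**Figure D3:**
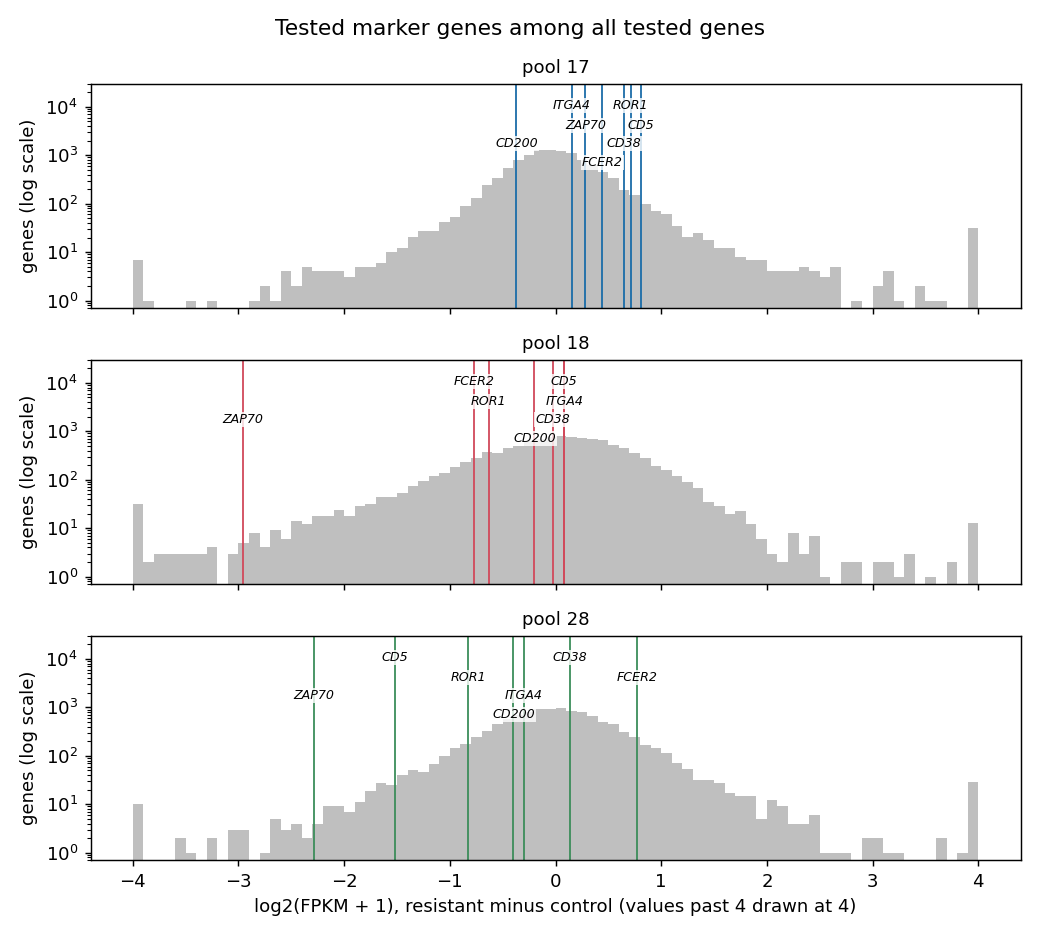
Histograms of the difference of log2(FPKM + 1) for all 11307 tested genes (log vertical axis, number of genes) in pools 17, 18 and 28, with lines at the 7 tested markers. ZAP70 lies in the lower tail in pools 18 and 28, CD5 in pool 28 only, and the 7 markers lie between -0.37 and 0.81 in pool 17.

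Counted by pool, the markers differed as follows. In pool 17, 0 of the 7 tested markers differed by over 1 in either direction, against 4.17% of tested genes (2.45% higher and 1.72% lower). In pool 18 this was 1 of 7 (ZAP70, lower), against 12.7% (5.41% higher and 7.24% lower). In pool 28 it was 2 of 7 (ZAP70 and CD5, both lower), against 8.08% (4.06% higher and 4.02% lower). ZAP70 alone was lower by over 1 in both pools 18 and 28, as were 1.24% of tested genes. One marker, CD200, had the same direction in all 3 pools, while 37.6% of tested genes did. The median over the 7 was 0.44, -0.20 and -0.40 in pools 17, 18 and 28, beside -0.03, 0.05 and -0.01 over all tested genes.

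Other genes used in CLL studies were read from a fixed list. Of 27 listed signature genes, 12 were tested and 0 passed, with a median of -0.04. FAIM3, an IgM receptor gene raised in CLL, had 2.86, 13.9 and 6.46 FPKM in controls, against 6.61, 3.44 and 1.73 in resistant libraries, higher in pool 17 and lower in pools 18 and 28, as ZAP70 was (-0.74, adjusted p = 0.595). BCL7A differed by -0.36 (0.604), and by -0.063 without resistant 18. The lipid transporter gene ABCA6 differed by 0.53 (0.648) and the survival gene BCL2 by -0.19 (0.702), with 55.2 ± 5.10 FPKM in controls, against 48.5 ± 8.66 in resistant libraries. TCL1A, an oncogene active in most CLL, was listed at 0 in 5 libraries and at 0.0352 FPKM in resistant 28.

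Markers of other B cell cancers were mostly low. SOX11, the marker of mantle cell lymphoma, did not exceed 0.0123 FPKM, and 4 of the 12 listed genes were tested, of which 0 passed. CD81, a tetraspanin of the cell surface, had 49.1, 81.5 and 85.3 FPKM in controls, against 36.5, 30.8 and 43.6 in resistant libraries (-0.92, adjusted p = 0.230), with no overlap. ANXA1, a hairy cell leukaemia marker, had 1.86 to 7.75 FPKM in controls, against 3.55, 58.1 and 7.14 in resistant libraries (1.402, 0.548). The cyclin gene CCND1 differed by -0.55 (0.630) and the integrin gene ITGAE by -0.28 (0.588).

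**Figure D4:**
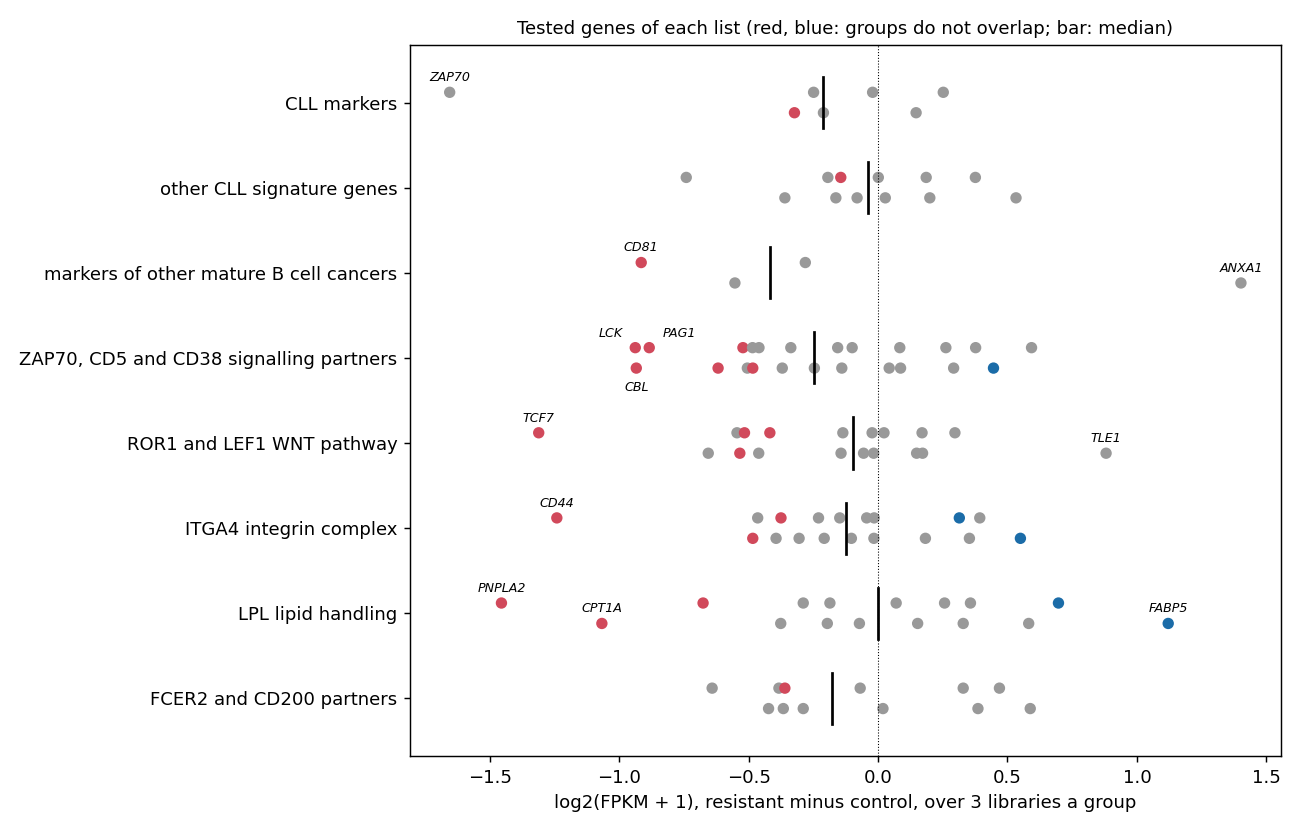
Difference of log2(FPKM + 1), resistant minus control over 3 libraries a group (horizontal axis), for each tested gene of 8 lists (vertical axis), with a bar at the list median; red and blue points are genes with all resistant libraries below or above all controls. ZAP70 is grey because resistant 17 lies among the controls, whereas LCK, PAG1, CBL, TCF7, CD44, PNPLA2 and CPT1A are red.

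The tested genes with levels most like those of ZAP70 over the 6 libraries were LAMA1, ITM2C and PHEX, with root-mean-square differences of 0.346, 0.427 and 0.461 between centred log2 values. LAMA1, a laminin gene, had 3.61, 8.14 and 3.44 FPKM in controls, against 3.46, 0.693 and 0.301 in resistant libraries. For CD38 they were UBAC2 (0.058), the small nucleolar RNA gene SNORD116-13 (0.071) and CIITA (0.094), the master regulator of MHC class II genes. CIITA had 7.38, 7.89 and 11.3 FPKM in controls, against 11.02, 7.73 and 12.1 in resistant libraries. The nearest gene was DFNA5 for CD5 (0.187), MFGE8 for ROR1 (0.168), LOC100133445 for FCER2 (0.047), SKA3 for ITGA4 (0.073) and CCDC134 for CD200 (0.030). A small value is easier to reach for a gene that varied little, such as CD200, than for ZAP70.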

How the data were processed

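FPKM were deposited by the authors, 1 value for each of 23619 gene symbols and library, per the file headers, with decimal commas. The submitters' processing notes name TopHat2 2.0.4, Cufflinks 2.2.1, HTSeq 0.6.1, DESeq2 and the build hg19; what each did is not given in the sources used here. Without deposited counts, no count model was fitted. Differences on log2(FPKM + 1) were tested with limma 3.58.1 in R 4.3.3 (lmFit, eBayes with trend, two-sided, Benjamini-Hochberg over 11307 genes), and the script was checked on simulated data. Relative depth came from the ratios of values under 0.3 FPKM. Steps are the smallest whole numbers, up to 1500, that fit all 6 libraries within 0.03, found for CD38, CD5, LPL and FMOD; the fragments behind the other markers are unknown. The members, lists and naming rules were chosen with earlier results of these data known. The rules name all 10 markers, up to 4 tested genes of smallest p per list, and the nearest genes in level (3 for ZAP70 and CD38); other genes were named after their values were seen. GC content and length came from GENCODE v29 for 87.7% of tested genes.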

Additional observations from a re-analysis of the deposited data

How the results depend on the processing

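The tested markers had 0 calls in limma under all 19 alternatives; with a mean FPKM of at least 5 as the filter, CD38 and ROR1 were not tested. Over all genes, 4 calls became 2 with GC and length trends removed, 0 with these and the replicate block, and 301 with array weights, and 3 to 18 with libraries left out (8 without resistant 17, 13 without resistant 18, 18 without both libraries of pool 18); the cause was not tested. With array weights 4 genes of the neighbouring lists passed, PAG1, CBL, TCF7 and PNPLA2, against 0 otherwise. ZAP70 stayed negative under every alternative, between -2.62 and -1.003 with libraries left out (adjusted p 0.116 to 0.923).

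Directions reversed for ROR1 with array weights (0.30), for ITGAM with array weights (-0.14), and for BGN with GC and length trends removed (-0.039, with or without the block) or array weights (-0.31). With libraries left out, CD38 ran from 0.055 to 0.48 (0.49 with array weights), CD5 from -0.72 to 0.44, FCER2 from -0.16 to 0.61, ROR1 from -0.75 to 0.19, ITGA4 from -0.24 to 0.23, ABCA6 from -0.029 to 0.82, BGN from -0.29 to 0.23, ITGAM from -0.19 to 0.70 and CD27 from -0.26 to 0.98.

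Deviations of same-numbered libraries correlated at 0.148, 0.089 and -0.024 in pools 17, 18 and 28. With 3 libraries a group, such correlations cannot decide whether the numbers pair the libraries. The main fit left the numbers out, although the design text speaks of pairs. The differences given by pool rest on these numbers and are descriptions. With pool number as a replicate block, 3 genes were called, ZAP70 had an adjusted p of 0.352, and no marker call changed. Not every library correlated best with its own number. LPL, LEF1 and FMOD were below the filter and have no test in the main fit. With no filter on low values they were fitted too, and 0 markers were called. The fragments behind LEF1 and ROR1 are unknown.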

Other observations

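A set of 22 tested genes (0.195%), ZAP70 included, had a positive difference in pool 17 and differed by under -1 in both pools 18 and 28; the rule was written after the values of ZAP70 were seen. The chemokine genes XCL1 and XCL2 were among them, and as near-identical copies they may share fragments. XCL1 had 117, 327 and 242 FPKM in controls 17, 18 and 28, against 325, 22.5 and 69.9 in resistant libraries. The direction of XCL1 in each pool, as of every gene of the set, was fixed by the rule that chose it. DTX1, a regulator of NOTCH signalling, had 12.7, 30.3 and 20.6 FPKM in controls, against 21.7, 6.54 and 7.79 in resistant libraries. RASGRP1, which activates RAS downstream of antigen receptors, had 16.7, 19.6 and 20.4 against 16.9, 7.25 and 7.88 FPKM. The tetraspanin gene CD37 had 46.2, 84.8 and 62.1 against 47.4, 29.2 and 28.5 FPKM. In pool 17 the positive difference was only 0.01 for RASGRP1 and 0.037 for CD37. The set also held 8 genes of small nucleolar RNAs.

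Genes beside ZAP70 and CD5 in RefSeq's order were set beside them. Over the 10 tested neighbours, 5 on each side, the median difference was 0.00, -0.37 and 0.24 in pools 17, 18 and 28. The lowest in each pool was TMEM131, with -0.62, -0.90 and -1.45 in pools 17, 18 and 28, against 0.28, -2.96 and -2.29 for ZAP70. The highest values among these neighbours were 0.68, 0.51 and 1.01. Over the 10 neighbours of CD5 the median in pool 28 was -0.03 and the lowest -0.69, against -1.52 for CD5. These neighbours were looked at after the values of both markers were seen.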
